A study of Mus musculus with 5 samples.

Results

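Vmn1r genes encode the vomeronasal type 1 receptors, a family of pheromone receptors that lie in tandem arrays in the mouse genome. The members were all genes whose symbol starts with Vmn1r in the RefSeq annotation of mm10 (assembly GRCm38.p6) on chromosomes 1 to 19. There were 372 of them among 49943 genes, 231 listed as protein-coding and 141 as pseudogenes. A member's region was its gene span with 1000 bp on either side.

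In the mouse, type 1 receptors are made by sensory neurons in the apical layer of the vomeronasal organ, where they couple to the G protein subunit encoded by Gnai2 and open the cation channel Trpc2. Each neuron expresses a single receptor gene, and the coding sequence of most members lies in 1 exon. Mice that lack a cluster of V1ra and V1rb receptors show altered mating and maternal aggression, and V1rj receptors respond to sulfated oestrogens.

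Whole-genome bisulfite sequencing reads unmethylated cytosines as thymines and methylated ones as cytosines. It was applied to sperm of C57BL/6 mice, with 3 libraries from mice 2 months old (young) and 2 libraries from mice 18 months old (old). Sperm were collected by letting them swim out of the cauda epididymis, where mature sperm are stored. No other treatment or genotype was labelled, and the labels do not say whether libraries of 1 age came from separate animals, so p-values measure the spread between these libraries. Coverage summed over the listed cytosines was between 67774094 and 97769462 per library, lowest in young 2. In this sum a read counts once for each listed cytosine it covers. All 5 libraries reached 5 reads at 2255866 CpGs, of 13063725 that appear in 1 library or more. These common CpGs had a median of 11 to 16 reads per library, and the 597 in Vmn1r regions had 10 to 15.

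The sperm label was checked at the less methylated end of imprinted and germline genes, since the maternally methylated imprints are unmethylated in pure sperm DNA. H19 and Rasgrf1, methylated on the paternal copy, averaged between 94.7% and 100% methylation in the 5 libraries. Of 11 measured maternally imprinted genes, Nnat alone was under 20% in the mean of the libraries, at 9.4% to 24.9%, and the mean over the 11 was 54.1% to 61.2%. Over 6 germline genes, which sperm precursors use and whose promoters were taken to be low in sperm, the mean was 49.8% to 64.4%. None of the 6 was under 20% and 2 were over 80%, so this list did not read low. The imprinted gene ends are not the imprint control regions themselves, and a part played by other cells in the receptor values was not tested.

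Few receptors could be measured, and the measured share differed between clusters. A region counted as measured with at least 3 common CpGs. This held for 81 of the 372 members (21.8%), against 29108 of all 49943 genes (58.3%). Another 111 members had 1 or 2 common CpGs and 180 had none, and for 61 no CpG was listed in any library. Only 6 had at least 10 common CpGs. The median measured member rested on 4 common CpGs, against 14 over all measured gene regions. Of the related chemosensory families, 202 of 272 Vmn2r genes (type 2 vomeronasal receptors), 632 of 1428 olfactory receptor genes and 7 of 16 Taar genes (trace amine receptors) were measured.

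Members were joined into a cluster where gaps were at most 1 Mb, which gave 16 clusters of 2 or more members and 5 members alone. Clusters are numbered here along each chromosome. Chromosome 6 held 83 members, 35 of them measured. Its second cluster, at chr6:56923914-58504695, had 24 of 44 members measured and consists mainly of V1rc receptors. The third, at chr6:66552183-66805332, had 6 of 9 measured. The fourth, at chr6:89698657-90270053, holds the V1ra and V1rb receptors and had 3 of 23 measured.

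Chromosome 7 held 176 members, but 22 were measured. Most of those, 16 of 47, lay in the third cluster, at chr7:10273828-13244458, which holds V1re, V1rg and V1rj receptors. The second, at chr7:5146490-6011010, holds V1rd receptors and had 3 of 19 measured. The fifth, at chr7:20101158-24055691, is the largest array with 99 members and had 3 measured. Chromosome 13 had 1 cluster, at chr13:22057168-23269501, with 12 of 75 members measured, V1rh and V1ri receptors among them. On chromosome 17, 8 of 26 members were measured in a cluster at chr17:20121717-21323764 with V1re and V1rf receptors, and on chromosome 18 all 3 members were. A further 6 members placed on chromosome 7 have coordinates before the first CpG listed there, and none of their CpGs was listed.

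RefSeq windows of 300 bp, from 250 bp before to 50 bp after the annotated start, were available for 206 members. In 181 of them (87.9%) the annotated start was itself an ATG, against 8.13% of the windows of all protein-coding genes, so most windows show the start of the coding sequence and not a mapped transcription start. The windows were poor in CpG. Their median was 1 CpG, against 13 over all protein-coding windows, 44 (21.4%) had none, against 4.63%, and no Vmn1r window had 10 or more, against 56.8%. The median GC content was 36.0%, against 56.3%.

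The following start windows (GRCm38.p6, gene strand, 5′ to 3′, CpGs in capitals) are those of 3 neighbouring genes of the chromosome 17 cluster, which include Vmn1r224, the lowest protein-coding member measured, and of 2 receptors with high levels elsewhere. Vmn1r224 is at chr17:20418913-20419212 on the plus strand, Vmn1r225 at chr17:20502049-20502348 (plus), Vmn1r226 at chr17:20687258-20687557 (plus), Vmn1r1 at chr1:182158049-182158348 (minus) and Vmn1r33 at chr6:66612519-66612818 (minus).
Vmn1r224: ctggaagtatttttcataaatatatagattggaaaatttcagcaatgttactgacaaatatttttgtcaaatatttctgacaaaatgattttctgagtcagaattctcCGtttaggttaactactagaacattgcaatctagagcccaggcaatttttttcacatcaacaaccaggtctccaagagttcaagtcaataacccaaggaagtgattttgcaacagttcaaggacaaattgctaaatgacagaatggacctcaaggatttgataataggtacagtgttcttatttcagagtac
Vmn1r225: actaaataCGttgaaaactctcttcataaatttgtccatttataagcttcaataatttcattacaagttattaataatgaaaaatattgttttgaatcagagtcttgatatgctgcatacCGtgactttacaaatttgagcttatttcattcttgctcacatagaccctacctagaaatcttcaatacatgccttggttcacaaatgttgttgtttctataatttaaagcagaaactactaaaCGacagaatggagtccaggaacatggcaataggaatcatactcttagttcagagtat
Vmn1r226: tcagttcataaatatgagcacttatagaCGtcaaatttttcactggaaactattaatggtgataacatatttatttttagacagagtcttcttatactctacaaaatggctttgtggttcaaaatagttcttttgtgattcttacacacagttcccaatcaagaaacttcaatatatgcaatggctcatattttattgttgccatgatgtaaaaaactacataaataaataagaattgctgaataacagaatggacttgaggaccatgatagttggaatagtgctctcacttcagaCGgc
Vmn1r1: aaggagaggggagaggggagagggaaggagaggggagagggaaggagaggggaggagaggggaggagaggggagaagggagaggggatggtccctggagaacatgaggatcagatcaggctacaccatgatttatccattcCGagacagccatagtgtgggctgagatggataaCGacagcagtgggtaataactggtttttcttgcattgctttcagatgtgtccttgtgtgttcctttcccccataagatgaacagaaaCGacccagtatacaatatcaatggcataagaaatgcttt
Vmn1r33: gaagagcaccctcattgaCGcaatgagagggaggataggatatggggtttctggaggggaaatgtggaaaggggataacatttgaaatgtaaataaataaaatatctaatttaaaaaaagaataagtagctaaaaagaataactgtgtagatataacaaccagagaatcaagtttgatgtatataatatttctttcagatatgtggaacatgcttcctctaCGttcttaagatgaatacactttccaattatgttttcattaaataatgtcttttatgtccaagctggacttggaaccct

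The single CpG of the Vmn1r224 window at position −142 relative to the annotated start, was methylated in 57.1%, 16.7% and 50% of reads in young 1, 2 and 3 and in 46.2% and 16.7% in old 1 and 2, from 6 to 13 reads each. The ages overlapped and every library was intermediate or low. In the Vmn1r225 window the CpG at −130 read 75.0%, 50% and 60% in young and 85.7% and 100% in old sperm, with 7 to 12 reads. The CpG of Vmn1r225 at −242 read 44.4%, 55.6% and 37.5% in young and 52.6% and 37.5% in old sperm. Of these 2 CpGs in 1 window, the one nearer the start was higher in every library except young 2, and it alone had both old libraries above all young ones.

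Both common CpGs of the Vmn1r226 window lay higher. The one at −222 read 80%, 87.5% and 57.1% in young and 80% and 85.7% in old sperm. Within the coding sequence, at 46, the other read 87.5%, 100% and 88.9% in young and 100% and 78.6% in old sperm. In Vmn1r33, a V1rc receptor, the CpG at −29 read 100%, 83.3% and 92.3% in young and 100% and 94.4% in old sperm. In Vmn1r1, which stands alone on chromosome 1, the CpG at 11 read 70%, 75.0% and 73.3% in young and 77.8% and 86.7% in old sperm, with no overlap between ages. Its other common window CpGs overlapped. The one at −109 read 75%, 100% and 88.9% in young and 93.3% and 92.3% in old sperm. The one at −76 read 77.8%, 85.7% and 85% in young and 92.9% and 71.4% in old sperm. Over all 24 common CpGs in the windows of 16 members, the mean was 83.4%, 87.8% and 83.7% in young and 88.6% and 84.3% in old sperm, so the ages overlapped.

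Start windows with a near-identical copy elsewhere in the family had fewer of their CpGs listed. For each of the 206 windows the closest other Vmn1r window was found by edit distance over the whole window. Identity is the percent of the window length left after counting substitutions, insertions and deletions. In 83 windows the closest was at least 95% identical, and in 54 it was identical at every base. Of the 83, 73 lay in the fifth chromosome 7 cluster, where they were 73 of 83 windows. The windows of Vmn1r93, at chr7:20139039-20139338 on the minus strand, and Vmn1r95, at chr7:20193460-20193759 on the plus strand, stand for that cluster, since each has exact copies (3 for Vmn1r93 and 1 for Vmn1r95) and 6 and 18 other windows at 95% identity or more.
Vmn1r93: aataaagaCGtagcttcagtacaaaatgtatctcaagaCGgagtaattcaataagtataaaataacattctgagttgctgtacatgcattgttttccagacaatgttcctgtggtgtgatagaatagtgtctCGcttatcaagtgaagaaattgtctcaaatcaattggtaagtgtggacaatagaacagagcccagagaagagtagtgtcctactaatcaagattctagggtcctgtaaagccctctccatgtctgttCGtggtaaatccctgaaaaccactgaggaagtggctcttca
Vmn1r95: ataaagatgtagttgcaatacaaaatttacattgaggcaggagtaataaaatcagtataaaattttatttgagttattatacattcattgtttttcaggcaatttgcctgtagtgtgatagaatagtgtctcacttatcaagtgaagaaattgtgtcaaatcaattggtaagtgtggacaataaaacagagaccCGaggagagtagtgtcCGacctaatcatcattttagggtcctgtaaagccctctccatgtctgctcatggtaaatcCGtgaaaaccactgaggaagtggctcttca

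None of the 4 CpGs of the first window or the 3 of the second was listed in any library. Of all 176 CpGs in windows with a match of 95% or more, 22.7% were listed in at least 1 library. The share was 88.6% of 35 CpGs where the closest window was 80% to 95% identical and 82.8% of 99 where it was under 80%. Of the regions, 7 of 83, 12 of 38 and 32 of 85 were measured in those 3 classes, so many regions without a near-identical copy were not measured either, and 32, 3 and 3 had no listed CpG at all. By chromosome, 100% of the 13 window CpGs were listed on chromosome 17, 93.3% on chromosome 13, 64.3% on chromosome 6 and 32.9% on chromosome 7. How the authors treated reads that match several places is not given in the sources used here, and its part in the listing was not tested.

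**Figure D1:**
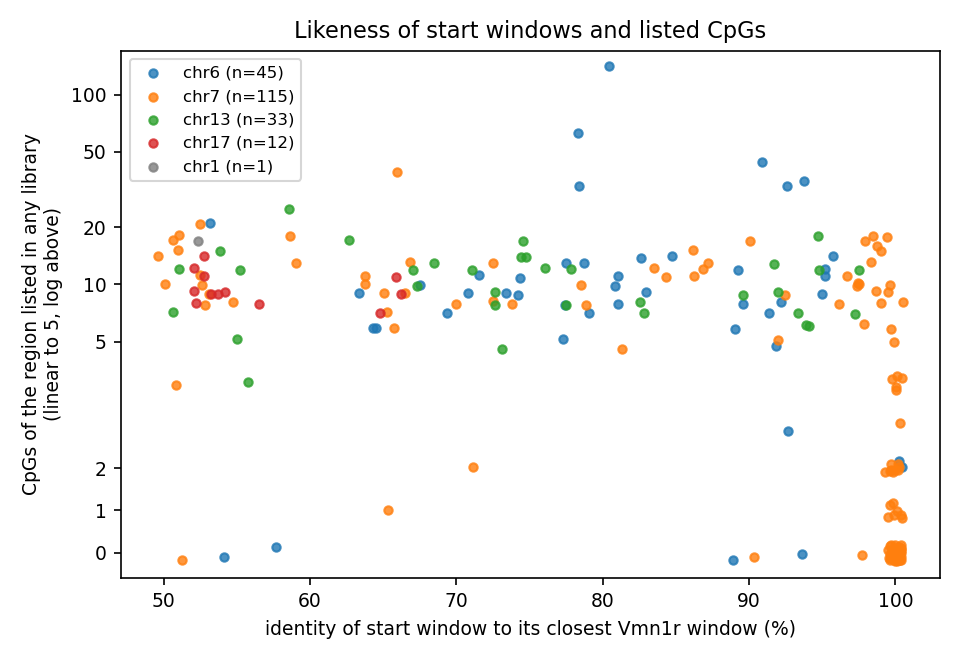
Each point is 1 of 206 Vmn1r members: identity of its 300-bp start window to the closest other Vmn1r window (x, percent) against the CpGs of its region listed in any library (y, linear to 5 and logarithmic above, points jittered). Regions without a listed CpG gather at identities near 100% on chromosome 7, while most regions below 95% had 5 or more.

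At the measured members, methylation was high, and the family mean was below that over all gene regions in 4 of 5 libraries. The mean over the 81 members was 83.6%, 84.7% and 82.7% in young 1, 2 and 3 and 86.6% and 83.8% in old 1 and 2, against 86.3%, 86.7%, 85.7%, 86.4% and 86.4% over all gene regions, so old 1 was the exception. The median member had 89.3% over the 5 libraries and the median gene region 92.9%. By level, 39 members (48.1%) were at 90% or more, against 64.9% of all gene regions, 30 were between 70% and 90%, and 12 (14.8%) were under 70%, against 11.4%. Vmn1r39 was the highest at 98.5% and Vmn1r-ps152 the lowest at 45.8%. Most single CpGs were high too: depending on the library, 68.7% to 75.7% of the 597 were methylated in 80% of reads or more and 0.84% to 2.51% in 20% or fewer. Over all common CpGs these shares were 82.7% to 86.0% and 1.37% to 2.40%. As a mean over CpGs, Vmn1r regions were below all common CpGs in every library, old 1 included (85.6% against 89.2%).

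The clusters differed in level more than the libraries did. The chromosome 13 cluster averaged 92.7% over 12 members and the third chromosome 6 cluster 92.5% over 6. The second chromosome 6 cluster averaged 86.6% over 24. On chromosome 7 the second cluster averaged 82.2%, the third 81.6% over 16 members and the fifth 69.6% over 3. The chromosome 17 cluster averaged 77.3% over 8 members and the chromosome 18 members 59.9% over 3. In all 5 libraries the chromosome 13 cluster and the third chromosome 6 cluster held the first 2 places among the 9 clusters with 3 or more measured members, and chromosome 18 the last. The fifth chromosome 7 cluster was eighth in every library except young 3, where the chromosome 17 cluster took that place. The order of the clusters between them changed from library to library.

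**Figure D2:**
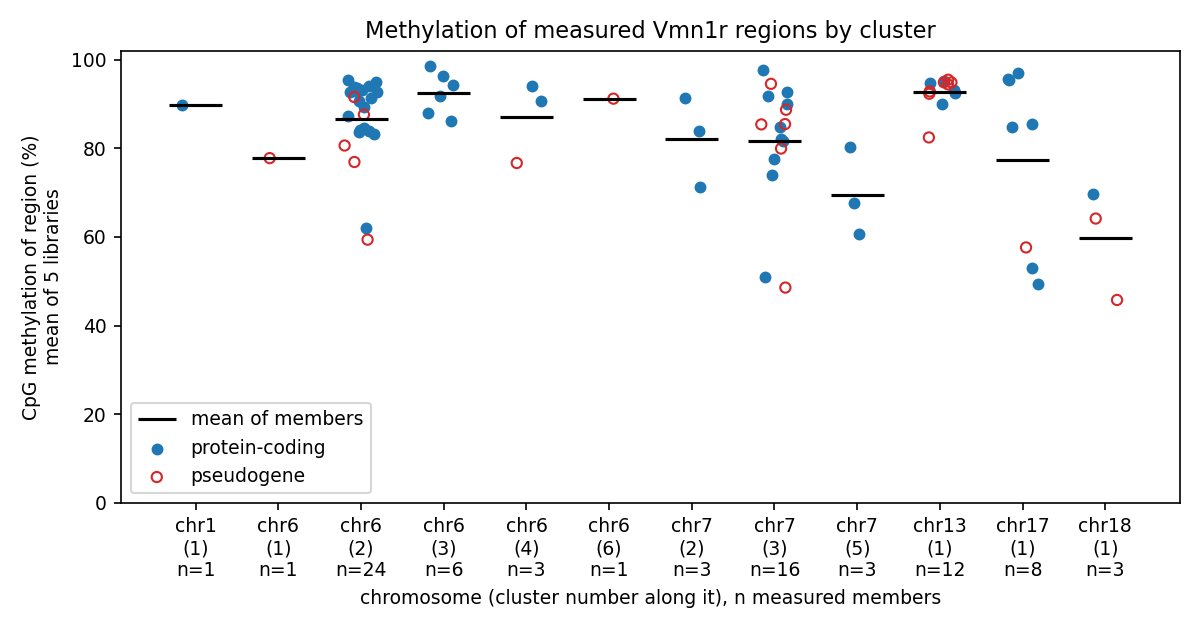
Points are the 81 measured Vmn1r regions, methylation in percent as the mean of the 5 libraries (y), by chromosome and cluster number (x); filled points are protein-coding members, open points pseudogenes and bars the mean of a cluster's members. The 12 chromosome 13 members sit between 82.4% and 95.5%, while the 8 chromosome 17 members spread from 49.5% to 96.9%.

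The low clusters lay in low surroundings. Common CpGs in the same span but outside Vmn1r regions averaged 91.0% in young sperm in the chromosome 13 cluster, from 698 CpGs, and 91.5% in the third chromosome 6 cluster, from 267. The corresponding young means were 68.5% for the fifth chromosome 7 cluster (1375 CpGs), 73.5% for chromosome 17 (1130) and 65.6% for chromosome 18 (109). At receptor CpGs the young means were 91.8%, 92.9%, 67.0%, 75.1% and 58.3% in the same order. The order of the 5 was therefore that of their surroundings.

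Along the genes, the mean over pooled common CpGs was highest over the gene span itself. In the 206 members with a known strand, the mean over the 5 libraries was 88.7% over the gene span, 85.8% over the 500 bp before the start and 84.3% over the 500 bp after the end. Over the next 500 bp outward it was 81.7% upstream and 82.9% downstream. The gene span was the highest of the 5 positions in 4 of 5 libraries, and in old 1 it was level with the 500 bp before the start (88.8% and 88.9%). The 46 CpGs in the 500 bp after the end read 81.2%, 85.0% and 81.1% in young and 87.3% and 86.8% in old sperm, a difference of 4.63 percentage points with no overlap. At the other 4 positions the ages overlapped. No test was made of these means, since each joins CpGs of many members. The members also count unevenly: Vmn1r4, a long gene, supplied more of the 112 gene-span CpGs than any other member. Without flanks, 10 members had at least 3 common CpGs. Whether the gene span stays highest without Vmn1r4 was not tested.

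**Figure D3:**
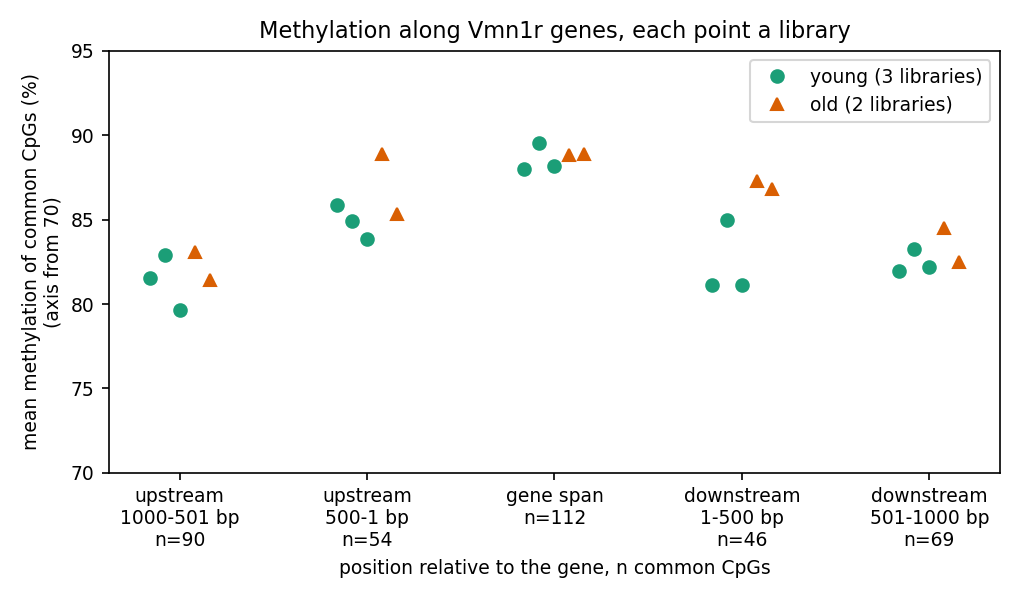
Each point is a library's mean methylation in percent (y, from 70) of the common CpGs at 5 positions along Vmn1r genes (x, with the number of CpGs); circles are the 3 young and triangles the 2 old libraries. The gene span is at 88.0% to 89.5% in all libraries, and old sits above young in the 500 bp after the end.

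The study compared young with old sperm, and no receptor region passed the test for age. Young libraries gave a family mean of 83.7% ± 1.04 (SD, n = 3) and old ones 85.2% ± 1.94 (SD, n = 2), a difference of 1.53 percentage points. Young 2 lay above old 2, so the ages overlapped, and without old 1 the difference was 0.16 points. The mean over all gene regions differed by 0.13 points. Old was higher in 55 of 81 members (67.9%), against 53.2% of all gene regions. These shares were 63.0% and 54.2% without young 1, 61.7% and 60.3% without young 2, 64.2% and 41.7% without young 3, 56.8% and 52.2% without old 1 and 71.6% and 54.6% without old 2. At every listed CpG they were 68.5% and 48.6%. Both old libraries were above all young ones in 6 members (7.41%), against 7.83% of all gene regions, and below them in 6, against 6.78%, so neither count stood clear of the background.

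With a quasi-binomial model of methylated and unmethylated reads across all regions, 0 of 29108 regions (0%) were called at a Benjamini-Hochberg adjusted p of 0.05 and a difference of at least 10 points. At an unadjusted p under 0.05 there were 549 regions (1.89%) and 0 members. All 81 members had an adjusted p of 1. In limma on log2 odds 0 regions were called as well, with 1044 regions and 2 members at an unadjusted p under 0.05. A plain binomial model, which ignores the spread between libraries, called 100 regions and no member. In it 4056 regions and 10 of 81 members had an unadjusted p under 0.05. The smallest adjusted p of a member there was 0.0367, with a difference under 10 points.

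The other chemosensory families are given for scale. Vmn2r regions averaged 74.3% ± 0.82 in the 3 young libraries (SD) and 75.6% ± 1.10 in the 2 old ones, with 151 of 202 higher in old. Olfactory receptor regions averaged 86.3% ± 0.30 in young and 87.3% ± 0.47 in old sperm, with 369 of 632 higher, and Taar regions differed by 0.07 points. Vmn1r levels thus lay above those of Vmn2r and below those of the olfactory receptors in each library, with old 1 the highest library for all 3 receptor families. Whether the age difference of Vmn1r differs from theirs was not tested.

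**Figure D4:**
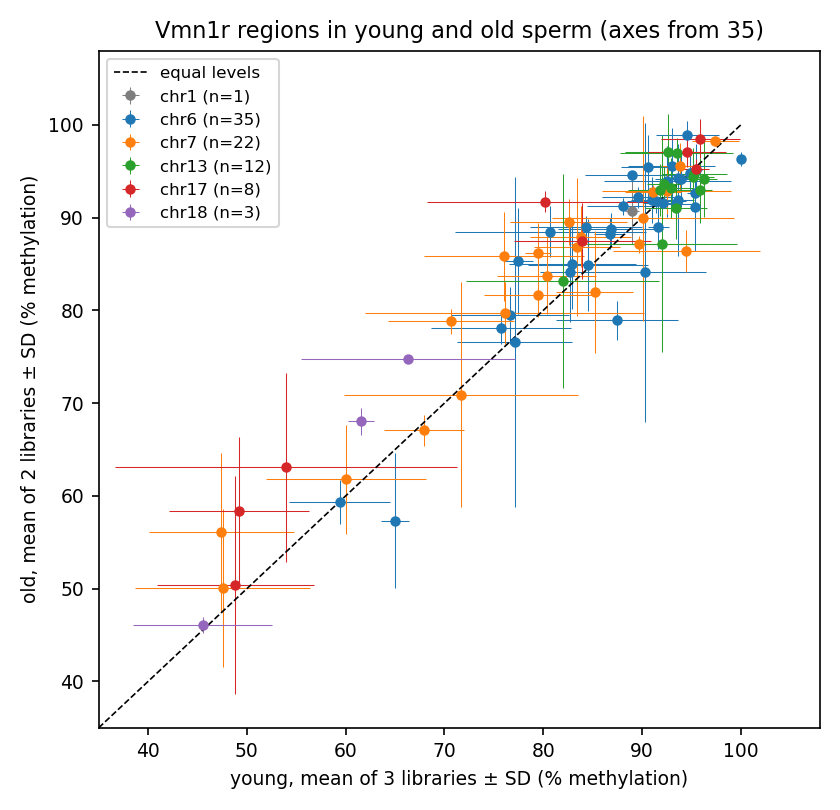
Each point is 1 of 81 measured Vmn1r regions, mean methylation in percent of the 3 young (x) and 2 old (y) libraries with SD bars, coloured by chromosome; both axes start at 35 and the dashed line marks equal levels. Of the points, 55 (67.9%) lie above the line, against 53.2% of all gene regions. In 6 of these both old libraries were above all young ones, as in 7.83% of all gene regions. In 6 points below the line both were below all young ones, as in 6.78% of all gene regions.

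Among libraries, old 1 stood at the top of the family. It had the highest level of the 5 in 22 of 81 members and the lowest in 4. It was above a member's own mean in 56 members (69.1%), against 54.9% of all gene regions. Young 3 was the lowest library in 24 members and above the mean in 32 (39.5%), against 33.8% of all gene regions. Young 2, the library with the lowest summed coverage, was highest in 21 and lowest in 18.

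In the third chromosome 7 cluster, 14 of 16 members were higher in old sperm, and the cluster mean was 80.5%, 79.5% and 80.3% in young and 84.4% and 83.3% in old sperm. The ages did not overlap, and the difference was 3.71 points. The 2243 common CpGs of the span outside Vmn1r regions behaved alike, with 78.3%, 79.2% and 78.7% in young and 81.4% and 80% in old sperm. With every listed CpG in place of the common ones, which gave 28 members in all, the means were 79.1%, 79.6% and 78.3% in young and 79.5% and 81.4% in old sperm, and young 2 lay above old 1. Without this cluster the family difference was 0.995 points and 41 of 65 members were higher in old.

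Vmn1r69 (V1re9), at chr7:10579756-10581487, had the smallest p of the family. Its 5 CpGs read 79.6%, 78.1% and 80.7% in young and 83.9% and 88.5% in old sperm. The young mean was 79.4% ± 1.30 (SD, n = 3), the old mean 86.2% ± 3.23 (SD, n = 2), the ages did not overlap, and p was 0.068 in the quasi-binomial model with an adjusted p of 1. The separation depended on weighting by reads. With an unweighted mean over CpGs, Vmn1r69 differed by 5.53 points with a young SD of 10.9, so the ages overlapped. A 1000-bp tile that overlaps the flank of its region, chr7:10582001-10583000, read 75.5%, 82.8% and 81.9% in young and 87.5% and 87.9% in old sperm (quasi-binomial p = 0.0134, adjusted p = 1). The tile was among those picked for the smallest p and overlaps the region, so it is not a separate observation. Vmn1r74 (V1rg5) read 75.9%, 72.5% and 63.6% in young and 77.9% and 79.8% in old sperm, again without overlap (quasi-binomial p = 0.119, adjusted p = 1). The pseudogene Vmn1r-ps58 read 77.4%, 89.0% and 81.4% in young and 91.3% and 87.8% in old sperm, where young 2 exceeded old 2.

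The same cluster held well-covered and low members. Vmn1r86, with 11 CpGs and 401 to 506 reads a library, read 91.4%, 93.8% and 88.1% in young and 93.3% and 92.3% in old sperm, so the ages overlapped. The pseudogene Vmn1r-ps50 read 77.9%, 86.9% and 86.6% in young and 90.3% and 85.6% in old sperm. Vmn1r89 (V1rj2), of the subfamily that responds to sulfated oestrogens, read 89.4%, 88.1% and 100% in young and 94.7% and 91.1% in old sperm, with both old values inside the young range. The other V1rj receptor, Vmn1r85 (V1rj3), could be read only at every listed CpG, at 84.9%, 78.9% and 88.2% in young and 90.9% and 100% in old sperm, from at least 3 CpGs.

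Vmn1r88, the member next to Vmn1r89, had the largest difference of the family at every listed CpG and was picked out after its values were seen. It read 93.4%, 90.6% and 82.7% in young and 47.4% and 65.8% in old sperm, from 53 to 152 reads and at least 9 CpGs a library. Both old libraries were below all young ones, by 32.3 points in the mean, opposite to most members of the cluster. None of its 35 listed CpGs was common to all libraries, so the libraries were read at partly different CpGs, and the part of this in the difference was not tested. In the quasi-binomial model at every listed CpG, 0 of 38303 gene regions were called, with 1544 regions and 1 of 162 members at an unadjusted p under 0.05.

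The lowest 2 measured members of the cluster, Vmn1r66 (V1re11) and Vmn1r-ps47, lay next to each other and were picked out after their values were seen. Vmn1r66 read 46.3%, 40.7% and 55.3% in young and 62.1% and 50% in old sperm, and Vmn1r-ps47 read 56.9%, 39.3% and 46.5% in young and 56.1% and 44.0% in old sperm. In both, old 2 lay inside the young range.

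On chromosome 17 the libraries did not divide by age. The 8 members averaged 72.0%, 83.7% and 70.1% in young and 83.4% and 77.1% in old sperm, so young 2 and old 1 were high, young 1 and young 3 low and old 2 between. In 6 of the 8 members both young 2 and old 1 were above the other 3 libraries, against 16.7% of all gene regions, 3 of 17 other gene regions within the same span 4 of 35 members on chromosome 6, 7 of 22 on chromosome 7 and 20 of all 81. This grouping of libraries was picked out after the values were seen. At the 1130 other CpGs of the span, young 2 was at 73.7%, level with young 1 at 73.1% and young 3 at 73.7%, and only old 1 was apart at 78.1%.

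Vmn1r236 (V1rf4), at chr17:21286533-21287653, had the largest age difference of any measured member, 11.5 points, which was 18.2 points without young 2, 6.73 without young 3 and 5.6 at every listed CpG. It read 76.2%, 93.8% and 70.7% in young and 90.9% and 92.5% in old sperm from 16 to 41 reads, so young 2 was above both old libraries (quasi-binomial p = 0.078, adjusted p = 1). Vmn1r224, with the most common CpGs of the cluster (7), read 42.6%, 57.7% and 46.2% in young and 58.7% and 42.1% in old sperm, and the ages overlapped fully. Next to it, Vmn1r225 (V1re5) read 47.1%, 57.1% and 43.5% in young and 64.0% and 52.8% in old sperm. Vmn1r226 (V1re2), whose window is also shown above, read 81.2%, 91.8% and 78.8% in young and 90.4% and 84.6% in old sperm. These 3 neighbours thus held means of 49.5%, 52.9% and 85.4% over the 5 libraries, each with young 2 and old 1 as the highest libraries. Without chromosome 17, the family means were 84.8%, 84.9% and 84.0% in young and 86.9% and 84.6% in old sperm, and the overlap of the ages remained.

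**Figure D5:**
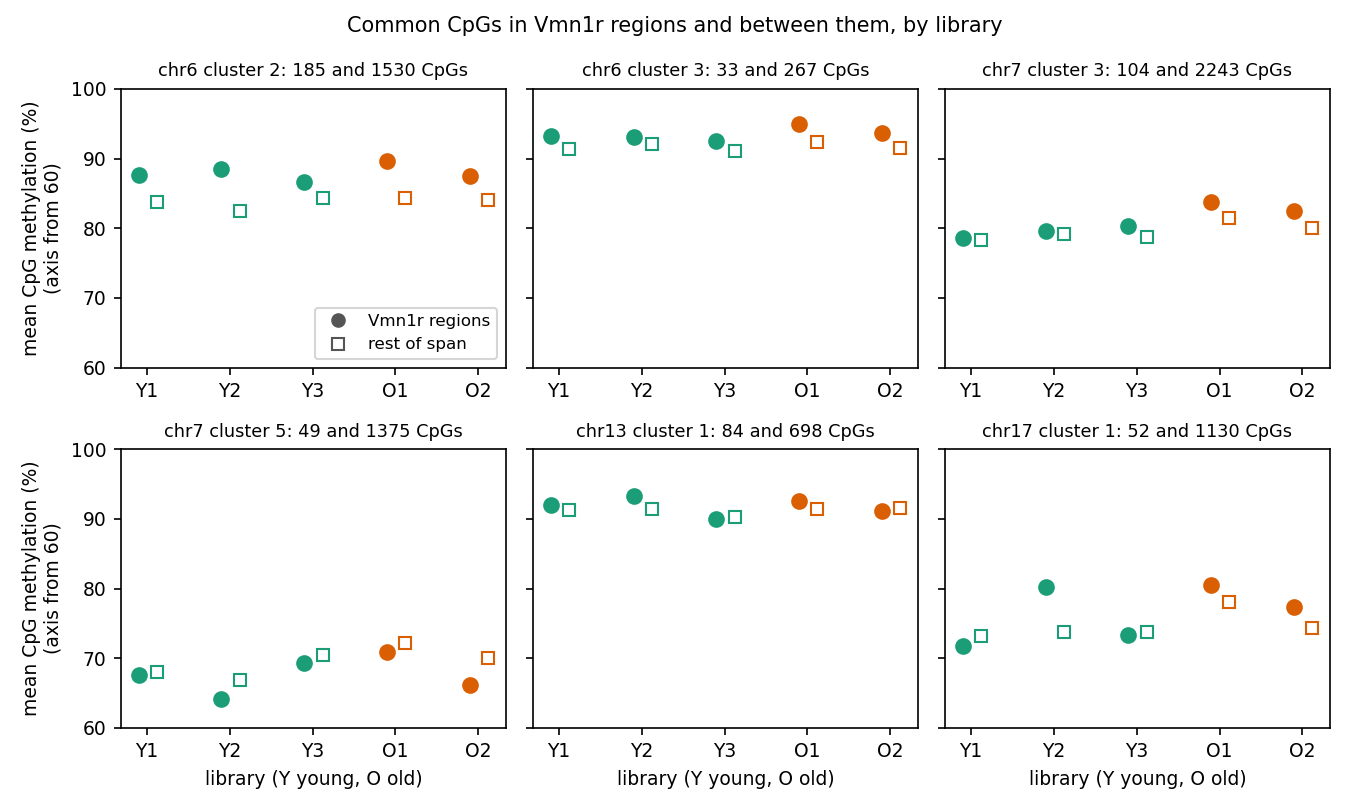
Mean methylation in percent (y, from 60) of common CpGs in Vmn1r regions (filled circles) and elsewhere in the same cluster span (open squares), by library (x, Y young, O old), for 6 clusters with the number of CpGs of each kind. In cluster 3 of chromosome 7 both kinds are higher in the 2 old libraries, and on chromosome 17 young 2 is at 80.3% at receptor CpGs and at 73.7% elsewhere.

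On chromosome 6, with 35 of the 81 measured members, the ages were close. The 24 members of the second cluster differed by 0.60 points, and 16 were higher in old. Vmn1r4 (V1rc21), which spans chr6:56923914-56957608 and had 44 CpGs, the most of any member, read 91.8%, 92.6% and 88.7% in young and 93.6% and 90.1% in old sperm. Its neighbour Vmn1r5 (V1rc19), with 19 CpGs, read 87.9%, 91.7% and 84.5% in young and 90.6% and 91.9% in old sperm. In both the ages overlapped. Within Vmn1r4 a tile of 5 CpGs, chr6:56932001-56933000, read 68.5%, 70.6% and 53.8% in young and 76.8% and 76.3% in old sperm (quasi-binomial p = 0.041, adjusted p = 1), lower than the gene as a whole in every library.

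Several chromosome 6 receptors were lower in old sperm, none of them past the test. Vmn1r10 (V1rc1) read 94.1%, 81.8% and 86.5% in young and 80.4% and 77.4% in old sperm, and Vmn1r26 (V1rc17) read 64.3%, 66.7% and 64.1% in young and 62.5% and 52.2% in old sperm, both without overlap between ages. In the third cluster, Vmn1r39 was fully methylated in all 3 young libraries and read 96.9% and 95.8% in old sperm, from 18 to 32 reads, so that 1 unmethylated read per old library made the difference (quasi-binomial p = 0.119, adjusted p = 1). Vmn1r33 (V1rc14), shown above, read 96.2%, 95.3% and 94.6% in young and 93.8% and 91.4% in old sperm, also without overlap. Vmn1r32 (V1rc15), 1 of 2 members of this cluster higher in old, read 91.4%, 94.7% and 97.8% in young and 97.7% and 100% in old sperm (quasi-binomial p = 0.090, adjusted p = 1). The direction in this cluster depended on which CpGs were read. Over its 6 measured members the mean was 0.70 points lower in old. Over its 33 common receptor CpGs the mean was 1.36 points higher in old. At every listed CpG, with 9 members, the cluster was 0.96 points higher in old (4 higher and 5 lower). A tile near Vmn1r31, chr6:58470001-58471000, had the largest difference of the tiles named here and read 90.5%, 77.8% and 100% in young and 72.2% in both old libraries, from 3 CpGs.

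The V1ra and V1rb cluster, whose loss alters behaviour, was hardly covered by common CpGs. Vmn1r41 (V1ra12) read 93.3%, 91.7% and 96.8% in young and 92.0% and 96.3% in old sperm, and the old values lay within the young range. Vmn1r45 (V1ra11) read 91.0%, 92.9% and 91.1% in young and 90.7% and 87.4% in old sperm, without overlap, and turned to 0.35 points higher in old at every listed CpG. The pseudogene Vmn1r-ps29 read 83.3%, 69.2% and 74.7% in young and 79.3% and 76.9% in old sperm. No V1rb receptor had 3 common CpGs. At every listed CpG, Vmn1r40 (V1rb7) read 92.3% to 95.7% in young and 84.6% and 100% in old sperm, and Vmn1r46 (V1rb8) read 78.8% to 93.3% in young and 75.0% and 93.9% in old sperm, with old on both sides of young. For Vmn1r50 (V1rb1), Vmn1r51, Vmn1r52, Vmn1r53 and Vmn1r54, neighbours at 1 end of the cluster, no CpG was listed in any library.

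A pair of pseudogenes far from the other members, Vmn1r-ps37 and Vmn1r-ps38, lie at the sixth chromosome 6 site. Vmn1r-ps37 read 83.5%, 92.1% and 91.2% in young and 94.3% and 94.8% in old sperm, without overlap (quasi-binomial p = 0.115, adjusted p = 1). The tile that both share, chr6:107863001-107864000, read 81.6%, 93.0% and 85.2% in young and 96.3% and 93.5% in old sperm (quasi-binomial p = 0.0256, adjusted p = 1). Old was above young in the region and in the tile, by little over young 2. The tile holds CpGs of the region, so it is not a separate observation.

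In the second chromosome 7 cluster the direction depended on which CpGs were read. All 3 measured V1rd receptors were lower in old by 0.75 to 8.08 points, but the mean over the 29 common receptor CpGs of the cluster was 0.56 points higher in old. At every listed CpG, with 8 members, the cluster was 4.26 points higher in old (6 higher and 2 lower), and the 9 V1rd receptors of all sites were 2.06 points higher (6 higher and 3 lower). Vmn1r55 (V1rd5) read 97.5%, 100% and 86.0% in young and 88.0% and 84.8% in old sperm. Vmn1r65 (V1rd6), with 10 CpGs, read 82.9%, 89.7% and 83.1% in young and 86.7% and 77.4% in old sperm. Young 3 lay with the old libraries in Vmn1r55, and the cluster mean of 75.7% in young 3 was below that of old 1 at 84.7%, so the ages overlapped. At the 626 CpGs of the span outside Vmn1r regions old was higher as well, at 75.0% and 72.0% against 71.1%, 70.5% and 70.4%. By older name, all 5 measured V1re receptors were higher in old sperm, at 79.7% and 74.4% against 69.0%, 73.2% and 70.6%, and the 22 V1rc receptors differed by 0.06 points.

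On chromosome 13 the members were uniformly methylated and did not divide by age, with 6 higher and 6 lower in old. The cluster mean was 94.0%, 93.3% and 91.0% in young and 94.3% and 90.9% in old sperm. Vmn1r-ps94, with 5 CpGs, read 90.2%, 93.2% and 93.4% in young and 94.9% and 92.4% in old sperm. Vmn1r206 (V1rh7) read 95.3%, 95% and 97.2% in young and 90.5% and 95.5% in old sperm. In both, 1 old library lay within the young range.

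The 3 members on chromosome 18 had the lowest cluster mean, with levels over the 5 libraries from 45.8% to 69.7%. The pseudogene Vmn1r-ps151 read 62.9%, 61.4% and 60.4% in young and 69.0% and 67.0% in old sperm from 6 CpGs, without overlap (quasi-binomial p = 0.211, adjusted p = 1). Vmn1r-ps152, the lowest member of all, read 43.7%, 39.6% and 53.3% in young and 45.5% and 46.7% in old sperm. It carried a mean of 124 reads per common CpG, the only member above 50, and the part of that coverage in its level was not tested. The coding member Vmn1r238 read 65.7%, 55.7% and 77.4% in young and 74.5% and 75.0% in old sperm, inside the young range.

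Protein-coding members were higher in old in 36 of 57 cases and pseudogenes in 19 of 24, both against the 53.2% over all gene regions. For coding members the young mean was 85.3% ± 1.32 (SD, n = 3) and the old mean 86.3% ± 1.77 (SD, n = 2). Pseudogenes averaged 79.7% ± 0.39 in young and 82.5% ± 2.34 in old sperm. Pseudogenes were below coding members in each of the 5 libraries. The difference between the 2 kinds was not tested.

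At the scale of 1000-bp tiles, 105 tiles overlapped a Vmn1r region, and 0 were called in the quasi-binomial model, as were 0 of all 321659 tiles (0%). At an unadjusted p under 0.05 there were 7 Vmn1r tiles (6.67%), against 3.06% of all tiles. In limma there were 3 of the 105 Vmn1r tiles, against 13796 of all 321659, so there the Vmn1r share was the lower one. Old was higher in 65 of the 105, against 52.5% of all tiles. Both old libraries were above all young ones in 7 Vmn1r tiles (6.67%), against 8.82% of all tiles, and below them in 5 (4.76%), against 8.14%. Apart from those above, the tiles lower in old with the smallest p lay near the pseudogenes Vmn1r-ps136 (100% in all young, 94.1% and 100% in old sperm) and Vmn1r-ps146, where the levels were 96.1%, 95.7% and 93.8% in young and 90.1% and 93.4% in old sperm.

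Other genes of the vomeronasal system, not all of them tied to type 1 receptors, showed no age difference past the test either. Of 52 listed genes of vomeronasal signalling, axon guidance and receptor choice, 30 were measured, and 11 were higher and 19 lower in old sperm, with 0 at an unadjusted p under 0.05 in the quasi-binomial model (53.2% of all gene regions were higher). Gnai2 had 2 common CpGs and was not measured. Trpc2, the transduction channel, read 100%, 97.8% and 95.5% in young and 98.1% and 100% in old sperm. Gnao1, the G protein subunit of the neurons that use type 2 receptors, had a young mean of 88.1% ± 3.56 (SD, n = 3) and an old mean of 89.2% ± 1.49 (SD, n = 2). Unlike any receptor, Fezf1, a transcription factor of the olfactory system, was nearly unmethylated at 7.24%, 5.56% and 8.47% in young and 7.41% and 7.38% in old sperm. Gng8, a G protein gamma subunit of vomeronasal neurons, had 33.3% ± 5.36 in young sperm against 32.2% ± 3.62 in old. Adcy2 and Ldb1 were the 2 genes of the list with both old libraries below all young ones, by 0.87 and 0.75 points, and 6.78% of all gene regions were apart in that direction.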

How the data were processed

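The 5 CpG call files, 1 per library, gave for each cytosine the deposited coverage as a count of reads and the percent of methylated and unmethylated reads, per the file headers. The submitters' processing notes name Trim Galore 0.4.3, Bismark 0.16.3, methylKit 1.4.0 and mm10 (GRCm38), and no cytosine with fewer than 5 reads was listed by the authors. How duplicates and multiple matches were handled is not given in the sources used here.

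Reads were recovered from coverage and percent, strands were merged, and CpGs with 5 reads in all libraries were summed per region. A region's level is methylated reads over all reads. A quasi-binomial model with moderated dispersion, written in Python 3.11.15 and tested on simulated data, was fitted to all regions and to 1000-bp tiles with at least 3 common CpGs. Alternatives were limma 3.58.1 on log2 odds with a pseudocount of 1, a binomial model, a replicate block, other coverage and CpG minimums, an upper coverage limit, no flanks, every listed CpG, and each library left out.

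Members, gene lists and tests were chosen with earlier results of these data known. Members were named if they were among the 6 higher and 6 lower in old with the smallest p, the 4 lowest and 4 highest with at least 10 common CpGs, the best covered on chromosomes with 3 or more measured, or V1ra, V1rb or V1rj by older name, with the 3 tiles higher and 3 lower of smallest p. Sequences and older names come from RefSeq (GRCm38.p6). Of 372 members, 206 matched a start window.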

Additional observations from a re-analysis of the deposited data

How the results depend on the processing

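No Vmn1r region or tile was called under any model or setting run. The direction of the family difference, higher in old, was kept in every setting, between 0.162 and 2.90 points with 1 library left out: 0.162 without old 1 and 2.90 without old 2, against 1.53 with all 5. The number of members higher in old was 46 to 58 of 81 with 1 library left out. Other settings measured other numbers of members: 16 of 22 were higher with at least 10 reads, 7 of 10 without flanks, 111 of 162 at every listed CpG and 5 of 6 with at least 10 common CpGs. With at least 5 common CpGs, a limit added after seeing the data, it was 24 of 29. Leaving out the third chromosome 7 cluster was also added after seeing the data. The binomial model called 100 gene regions, 50 in each direction, and 714 tiles, 318 higher and 396 lower, where the quasi-binomial model called 0 of each. With a replicate block 0 regions were called (596 at an unadjusted p under 0.05) and 0 tiles (381), as without the block. The labels do not say whether the replicate numbers pair the samples. Deviations of same-numbered libraries correlated at 0.00181 and −0.0581. This cannot settle the question, since the deviations of the 2 old libraries mirror each other. Of the 24 named members, direction changed at every listed CpG for Vmn1r45 and Vmn1r206 and with an unweighted mean over CpGs for Vmn1r4 and Vmn1r41. It changed for Vmn1r41, Vmn1r89 and Vmn1r224 without young 1, for Vmn1r41, Vmn1r-ps29 and Vmn1r89 without young 2, and for Vmn1r4 without young 3. Without old 1 it changed for Vmn1r4, Vmn1r89 and Vmn1r224, and without old 2 for Vmn1r41 and Vmn1r65. The median measured member rested on 4 common CpGs with 10 to 15 reads at the median CpG of a library.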
